A study of Mus musculus with 45 samples.

Results

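The response of the liver of 129S6/SvEvTac mice (129S6) to dietary fat was measured on 8 of the 45 arrays of the study, all the liver arrays of this strain: 4 from mice on the high-fat diet and 4 from mice on the low-fat diet. The study compared the 2 diets in epididymal fat, liver and muscle of 129S6 mice and of another inbred strain, C57Bl/6 (B6), whose liver also had 4 arrays on each diet. All mice were 6 months old. The labels name no altered gene in any group. Each array carried cRNA made from 25 µg of RNA pooled from 2 to 3 mice, so the spread between arrays, on which every p-value rests, is the spread between pools. The design text describes a single diet, in which fat gave 21% of the calories, protein 22% and carbohydrate 57%; the sources used here do not say which of the diets it was or what the other held. Levels are the deposited log2 values and a difference is high-fat minus low-fat in log2 units ± SE, so that 1 unit is a doubling. Each of the 8251 genes is read from 1 probe set, the brightest over the liver arrays. A gene is called when its adjusted p from limma's moderated test, fitted to all 16 liver arrays with 4 group means and adjusted over all genes by Benjamini and Hochberg, is under 0.05.

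The liver makes fatty acids from carbohydrate through an enzyme chain that includes fatty acid synthase and stearoyl-CoA desaturase. The transcription factor SREBP-1c, encoded by Srebf1, raises their transcription when insulin is high and is held down in mouse liver by polyunsaturated fatty acids. The same organ clears drugs, steroids and bile acids with cytochromes P450, transferases and hydrolases, many of them induced by the nuclear receptors CAR (Nr1i3) and PXR (Nr1i2). In rodents many of these liver genes also differ between the sexes under the pattern of growth hormone release.

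The tissue label was checked against hepatocyte markers: 10 were measured, with a median level of 11.76, while the median gene of each array lay between 6.53 and 6.56. Low-fat replicate 11 stood apart in the signal of the Gapdh control probe sets, where the 3′ probes exceeded the 5′ probes by 3.26 log2 units, against 0.04 to 0.27 in the high-fat arrays and 0.13 to 0.41 in the other low-fat arrays. Between the diets this measure did not differ beyond the spread (exact permutation test, two-sided, p = 0.286 with 4 against 4 arrays, where 0.0286 is the smallest p possible). The array numbers in the sample names also fall into runs. High-fat replicates 7 to 10 and low-fat replicates 5 and 6 lie in a run called L2 here, and low-fat replicates 11 and 12 in a later run, L3; the sources used here do not say whether a run was hybridised together. Over all genes, low-fat replicates 5 and 6 had a mean correlation of 0.993 and 0.987 with the high-fat arrays, and of 0.982 and 0.973 with the other low-fat arrays, a description in which the genes are not independent. Low-fat replicate 12, of run L3, also correlated more with the high-fat arrays (0.988) than with its own group (0.981), and for low-fat replicate 11 the values were 0.962 and 0.963. Results are therefore also given without low-fat replicate 11 and within run L2. Of 13 macrophage markers, 13 had a positive difference and none was called; their summed level was 92.4 to 99.0 on the high-fat arrays and 89.4 to 93.1 on the low-fat arrays. The 13 skeletal muscle markers, 6 positive and 7 negative, had differences from -1.36 to 0.17 with a median of -0.03, and none was called. Their summed level was 75.2 to 78.3 on the high-fat arrays and 78.0 to 81.2 on the low-fat arrays. Of all genes, 0.23% were called and 4450 of 8251 had a positive difference. The part of the macrophage and muscle markers in the results below was not tested.

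On the high-fat diet the liver of 129S6 mice had lower levels of 4 P450 genes of families 1 to 3, Cyp3a11, Cyp2b10, Cyp2c70 and Cyp3a16, and of 4 enzymes that act on reactive or conjugated compounds, Aox1, Ephx1, Gsta2 and Gstm3. The genes called higher were Scd1, Fasn and Srebf1 of fatty acid synthesis, the lipoprotein factor Pltp and Cyp17a1. In all, 19 of 8251 genes (0.23%) were called, 5 higher and 14 lower. Among the called genes the largest change was the fall of Cyp3a11, a P450 with broad drug substrates, by 1.79 log2 units. The largest rise of a called gene was that of Scd1, the desaturase, by 1.20. Before adjustment, 527 genes (6.39%) had a p under 0.05, 255 with a positive and 272 with a negative difference. In 243 genes (2.95%) the arrays of the diets did not overlap, with 143 higher (1.73%) and 100 lower (1.21%) on the high-fat diet, and all 19 called genes were among them. Differences were otherwise small, with a median size of 0.09 over all genes, and 18 genes differed by more than 1 log2 unit, of which 6 were called. The number of called genes was 15 (0.182%) without low-fat replicate 11, with 11 of the 19 among them, and it was 2, 3, 7 and 2 without high-fat replicates 7, 8, 9 and 10 and 6 without low-fat replicate 12. The 8 genes that lost the call without low-fat replicate 11 were Lifr, Pltp, Cyp3a16, Serpina12, Mcm10, C2, Gsta2 and G6pc, with an adjusted p between 0.0881 and 0.118. Cyp2b10 and Cyp3a11 kept their call under each of 18 alternative settings. Of these, the array run as a block and run L2 alone give the same difference for each gene.

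**Figure D1:**
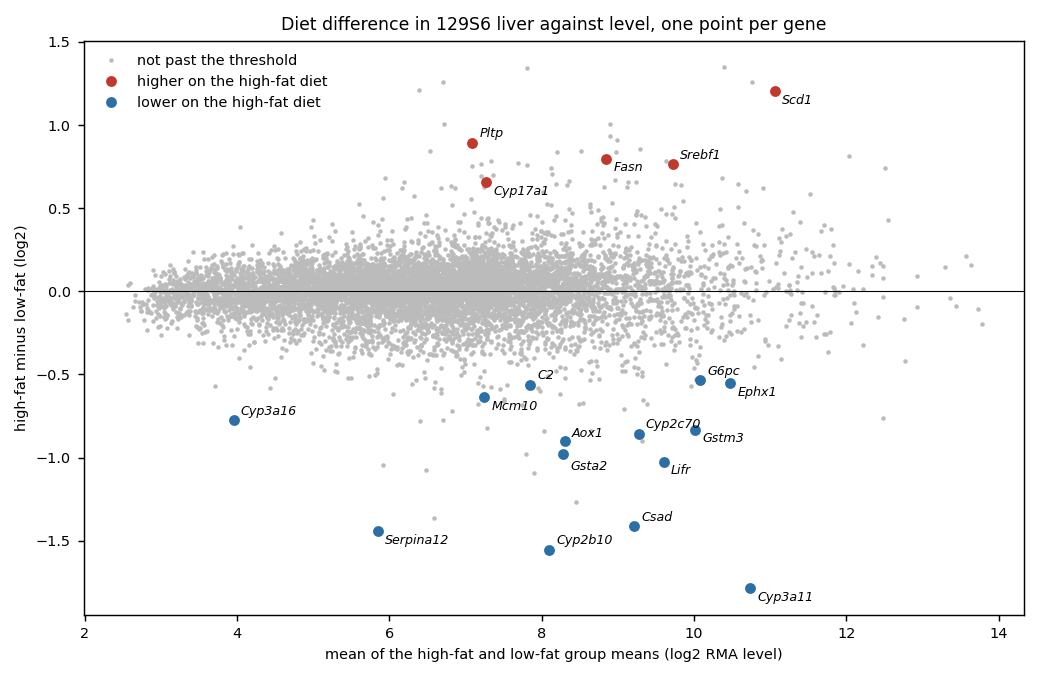
Difference between the diets (high-fat minus low-fat, log2, vertical axis) against the mean of the group means (log2 level, horizontal axis) for 8251 genes in 129S6 liver. Red points are the 5 genes called higher and blue points the 14 called lower; Cyp3a11 lies lowest at -1.79, and several uncalled grey points lie as far out as the called ones.

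Cyp3a11 and Cyp2b10, the P450 genes used as readouts of PXR and CAR in mouse liver, had the smallest p-values of the comparison, and both fell. Cyp3a11 had levels of 9.56, 9.97, 10.05 and 9.79 in high-fat livers and of 11.40, 11.32, 11.96 and 11.85 in low-fat livers. The groups were separated by 1.26 log2 units at their nearest arrays, and the mean was 3.45-fold lower on the high-fat diet (-1.79 ± 0.17, adjusted p = 3.34e-05). Cyp2b10 had 7.25, 7.17, 7.07 and 7.82 in high-fat livers and 8.88, 8.90, 9.00 and 8.74 in low-fat livers. High-fat replicate 10 was the nearest to the low-fat arrays and still lay 0.92 below them, for a mean 2.94-fold lower (-1.55 ± 0.13, adjusted p = 1.35e-05). In bulk RNA, fewer cells of a type and less RNA per cell cannot be told apart, for these genes and for those that follow. Genes of the Cyp2b, Cyp3a and glutathione transferase families are close copies, and probes may not tell them apart. Without low-fat replicate 11 the differences were -1.68 for Cyp3a11 and -1.51 for Cyp2b10, and within run L2 they were -1.51 and -1.57.

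The receptors themselves were not called. Nr1i3 averaged 9.36 in high-fat and 9.23 in low-fat livers (0.13 ± 0.16, adjusted p = 0.896) and Nr1i2 averaged 6.01 in high-fat and 5.94 in low-fat livers (0.07 ± 0.14, adjusted p = 0.944), and both small differences turn negative without low-fat replicate 11, at -0.06 and -0.04. Among 29 measured nuclear receptors and co-factors none was called, where 0.23% of all genes were called. Their median difference of 0.03 lay near that of all genes, 0.01. Because Cyp3a11 and Cyp2b10 kept their calls under all alternatives, the 250 bases before their RefSeq starts are shown, from the table of assembly GRCm38.p6, at chr5:145879855-145880104 on the minus strand and at chr7:25897408-25897657 on the plus strand. Capitals mark matches on either strand to 1 of 5 motifs: the nuclear receptor half-site AGGTCA, its variant AGTTCA, the box CCAAT, the E-box CACGTG, and, as an approximate sterol response element, TCACNCCAC.
Cyp3a11: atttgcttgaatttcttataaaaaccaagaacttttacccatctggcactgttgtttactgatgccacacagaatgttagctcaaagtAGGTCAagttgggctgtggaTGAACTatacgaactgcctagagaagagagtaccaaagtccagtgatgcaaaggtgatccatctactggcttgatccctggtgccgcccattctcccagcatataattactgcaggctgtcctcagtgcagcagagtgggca
Cyp2b10: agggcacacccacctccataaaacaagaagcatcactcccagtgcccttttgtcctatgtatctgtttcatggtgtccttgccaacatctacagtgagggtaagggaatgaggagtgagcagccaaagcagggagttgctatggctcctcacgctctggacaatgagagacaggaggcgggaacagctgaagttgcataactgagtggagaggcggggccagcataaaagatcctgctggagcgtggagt
The Cyp3a11 window held AGGTCA at 162 to 157 bases before the start and AGTTCA, on the reverse strand, at 142 to 137. None of the motifs was in the Cyp2b10 window. Sequence outside the 250 bases was not searched, so sites elsewhere would be missed. Of 32851 such windows, 14.0% held AGGTCA and 11.8% held AGTTCA.

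Of 23 measured P450 genes of families 1 to 3, which act mainly on foreign compounds and steroids, 4 were called lower and 0 higher, against 0.17% and 0.0606% of all genes. Their median difference was -0.12 and 17 were negative. Without low-fat replicate 11, 3 were called lower, and with the array run as a block 2. Cyp2c70, which makes the muricholic acids of mouse bile, had 8.87, 9.03, 8.84 and 8.64 in high-fat livers and 9.50, 9.43, 10.14 and 9.73 in low-fat livers, 1.81-fold lower (-0.86 ± 0.15, adjusted p = 0.028). Low-fat replicate 11 was the highest of these arrays. Cyp3a16, a close relative of Cyp3a11, was the dimmest called gene, brighter than 7.56% of genes only, and its probe set is marked as sharing probes with other transcripts (-0.77 ± 0.15, adjusted p = 0.0463). It had 3.57, 3.48, 3.67 and 3.55 in high-fat livers and 4.56, 4.39, 4.55 and 3.88 in low-fat livers. The level of Cyp2c29, named after its values were seen, averaged 7.93 in high-fat and 8.54 in low-fat livers and was not called (-0.62 ± 0.20, adjusted p = 0.543).

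Enzymes that act on reactive and conjugated compounds held 4 more of the called genes, each lower on the high-fat diet. Aox1, the aldehyde oxidase, had 7.72, 7.81, 8.07 and 7.82 in high-fat livers and 8.58, 8.31, 9.33 and 8.78 in low-fat livers (-0.90 ± 0.15, adjusted p = 0.027). Ephx1, the microsomal epoxide hydrolase, had 9.98, 10.21, 10.39 and 10.21 in high-fat livers and 10.66, 10.69, 10.81 and 10.84 in low-fat livers, a smaller fall with little spread (-0.55 ± 0.10, adjusted p = 0.027). Glutathione S-transferases couple glutathione to electrophiles. Gsta2 had 7.95, 7.93, 7.60 and 7.70 in high-fat livers and 8.51, 8.19, 9.39 and 8.98 in low-fat livers (-0.98 ± 0.19, adjusted p = 0.0498). Its low-fat arrays of run L3 were higher than those of L2, and the difference within L2 was -0.56. Gstm3 had 9.55, 9.80, 9.48 and 9.55 in high-fat livers and 10.37, 10.28, 10.51 and 10.56 in low-fat livers (-0.83 ± 0.13, adjusted p = 0.0211). The Gstm3 probe set shares probes with other members of its family, so the fall cannot be assigned to 1 of them, and a second probe set gave -0.37.

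Of all genes, 0.17% were called lower and 0.0606% higher. Over the whole lists, 2 of 22 measured genes of glutathione transfer and synthesis and 2 of 35 conjugating and other drug-metabolising enzymes were called lower, and 0 were called higher in either. The medians were -0.04 and -0.09. Without low-fat replicate 11 the median of the conjugating enzymes was 0.0018, and with the array run as a block it was 0.04, so its sign depends on the low-fat arrays used. With that block 0 genes of either list were called, and without low-fat replicate 11 there were 1 of the glutathione list and 2 of the conjugating enzymes. Gstp1, the pi-class transferase abundant in the livers of male mice, had 12.25, 12.01, 12.04 and 12.10 in high-fat livers and 12.81, 13.10, 12.63 and 12.90 in low-fat livers, with no overlap and no call (-0.76 ± 0.16, adjusted p = 0.0695). Gclc, the catalytic subunit of the enzyme that limits glutathione synthesis, averaged 8.27 in high-fat and 8.75 in low-fat livers (-0.47 ± 0.10, adjusted p = 0.0789). Gsta4, named after its values were seen, averaged 6.46 in high-fat and 7.18 in low-fat livers with low-fat replicate 11 highest at 8.05 (adjusted p = 0.387). Going the other way without a call, Nnmt, which methylates nicotinamide, averaged 7.47 in high-fat and 6.72 in low-fat livers (0.75 ± 0.17, adjusted p = 0.11).

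**Figure D2:**
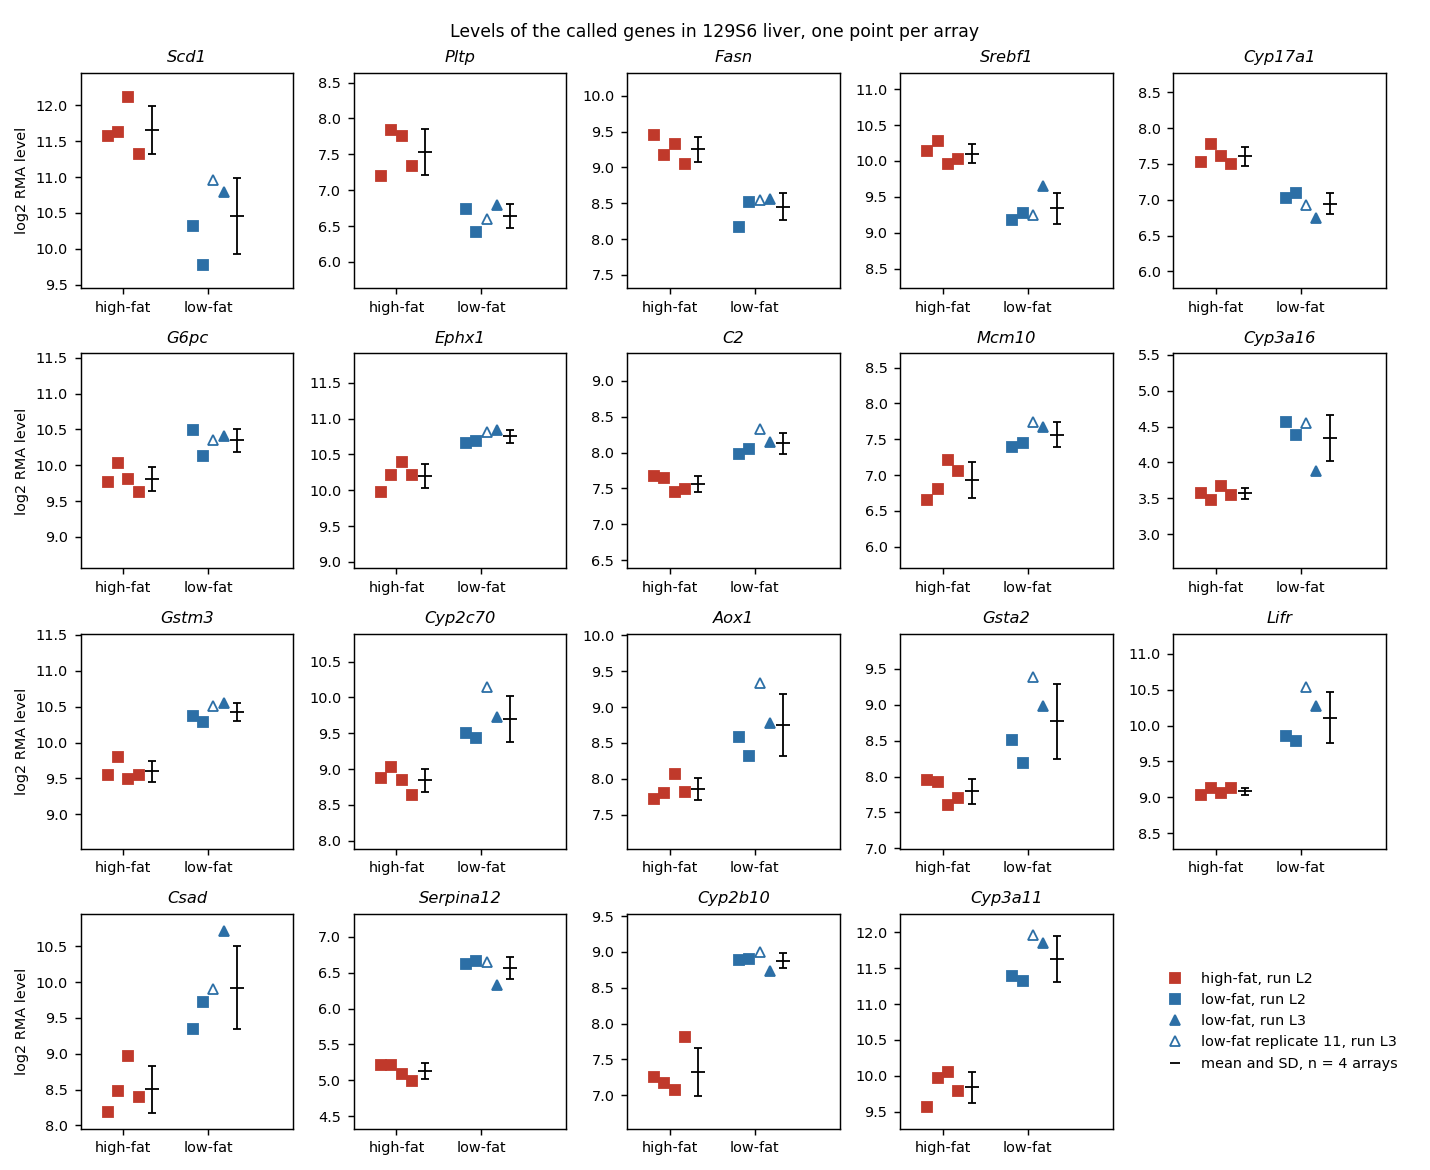
Log2 level on each 129S6 liver array for the 19 called genes, ordered from the highest to the lowest difference, with high-fat arrays (red) left of low-fat arrays (blue); squares are run L2, triangles run L3, the open triangle is low-fat replicate 11, and the bars are mean and SD of 4 arrays. Each panel spans 3 log2 units. In each panel the diets do not overlap. Both low-fat triangles lie above both low-fat squares in panels that include Csad, Lifr, Gsta2, Aox1, Cyp2c70, Cyp3a11, Gstm3, Ephx1, Scd1 and Fasn.

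Srebf1, Fasn and Scd1, the regulator and a pair of enzymes of fatty acid synthesis, rose on the high-fat diet. Srebf1 had 10.14, 10.27, 9.96 and 10.03 in high-fat livers and 9.18, 9.27, 9.25 and 9.65 in low-fat livers, 1.70-fold higher (0.76 ± 0.12, adjusted p = 0.0232). Fasn, the synthase, had 9.45, 9.17, 9.32 and 9.05 in high-fat livers and 8.17, 8.52, 8.55 and 8.56 in low-fat livers, 1.74-fold higher (0.80 ± 0.15, adjusted p = 0.0344). Scd1, which makes oleate from stearate, had 11.57, 11.62, 12.12 and 11.32 in high-fat livers and 10.31, 9.78, 10.96 and 10.79 in low-fat livers, 2.30-fold higher (1.20 ± 0.21, adjusted p = 0.028). A second Scd1 probe set rose by 1.62 (adjusted p = 0.00372 over all probe sets), and a dimmer one gave -0.08 (adjusted p = 0.959). Within run L2 the differences were larger, at 0.88 for Srebf1, 0.90 for Fasn and 1.62 for Scd1. With only the 129S6 arrays in the fit none of the 3 passed, with an adjusted p of 0.0857, 0.0717 and 0.292 for Srebf1, Fasn and Scd1.

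Of 20 measured genes of fatty acid synthesis, these 3 were called higher and 0 lower, against 0.0606% and 0.17% of all genes. The median difference of the 20 was 0.24. Without low-fat replicate 11 the median was 0.11 with 4 called higher, and with the array run as a block it was 0.16 with 3 called higher. Before adjustment 8 were higher and 1 lower, against 3.09% and 3.3% of all genes. The elongases Elovl5 and Elovl2 and the desaturase Fads1, which act on polyunsaturated chains, were higher without a call. The desaturase Fads2 was not measured. Elovl5 had 11.34, 11.56, 11.57 and 11.08 in high-fat livers and 10.76, 10.19, 8.81 and 10.77 in low-fat livers (1.26 ± 0.32, adjusted p = 0.229), with low-fat replicate 11 far below the others. Elovl2 averaged 8.93 in high-fat and 8.09 in low-fat livers (0.85 ± 0.20, adjusted p = 0.15) and Fads1 averaged 10.71 in high-fat and 10.03 in low-fat livers (0.68 ± 0.16, adjusted p = 0.148). Mid1ip1, a partner of acetyl-CoA carboxylase, had 8.11, 8.28, 8.07 and 7.87 in high-fat livers and 6.92, 7.04, 7.74 and 7.54 in low-fat livers. It was not called over all arrays (0.77 ± 0.18, adjusted p = 0.148) but was without low-fat replicate 11 (adjusted p = 0.0437). Its relative Thrsp varied widely, at 8.97, 8.87, 10.25 and 9.37 in high-fat livers and 7.39, 7.98, 9.73 and 8.64 in low-fat livers (0.93 ± 0.38, adjusted p = 0.69).

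Several other enzymes of the pathway were not called. Acly, which supplies cytosolic acetyl-CoA, averaged 9.21 in high-fat and 9.05 in low-fat livers (0.16 ± 0.17, adjusted p = 0.881). Me1, the malic enzyme that supplies NADPH, averaged 7.83 in high-fat and 8.34 in low-fat livers (-0.51 ± 0.25, adjusted p = 0.815), and Elovl6, the elongase of saturated chains, 6.73 in high-fat and 6.70 in low-fat livers (0.03 ± 0.22, adjusted p = 0.986). The widest spread was that of Lpin1, a phosphatidate phosphatase named after its values were seen, with 6.25, 7.63, 9.12 and 8.27 in high-fat livers and 8.77, 8.92, 9.67 and 8.98 in low-fat livers (-1.27 ± 0.46, adjusted p = 0.639).

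Srebf1, Fasn and Pltp were the 3 genes called higher that also differed between the strains. The promoter windows of Fasn and Pltp are shown, and that of Srebf1 is not. The windows shown lie at chr11:120824548-120824797 and chr2:164857709-164857958, both on the minus strand, in RefSeq's table of GRCm38.p6, with the same motifs in capitals.
Fasn: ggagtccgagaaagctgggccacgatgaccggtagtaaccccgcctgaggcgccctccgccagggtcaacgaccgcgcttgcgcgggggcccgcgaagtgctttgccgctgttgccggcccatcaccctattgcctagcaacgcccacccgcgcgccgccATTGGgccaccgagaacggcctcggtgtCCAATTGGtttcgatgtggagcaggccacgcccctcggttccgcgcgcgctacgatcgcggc
Pltp: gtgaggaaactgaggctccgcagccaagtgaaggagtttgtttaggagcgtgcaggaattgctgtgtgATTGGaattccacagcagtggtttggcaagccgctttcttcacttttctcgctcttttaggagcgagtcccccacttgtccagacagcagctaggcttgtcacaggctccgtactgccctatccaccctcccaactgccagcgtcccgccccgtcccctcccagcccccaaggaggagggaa
Fasn held CCAAT at 90 to 86 and 59 to 55 bases before the start on the reverse strand and at 62 to 58 on the forward strand, the last pair overlapping, and Pltp held it at 182 to 178 on the reverse strand. CCAAT was in 33.8% of all windows. Neither window held CACGTG, found in 6.02% of windows, or TCACNCCAC, found in 1.05%.

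Pltp, which moves phospholipids between lipoproteins, was the called gene of lipoprotein metabolism, with 7.20, 7.84, 7.76 and 7.33 in high-fat livers and 6.74, 6.42, 6.59 and 6.80 in low-fat livers. It was 1.86-fold higher on the high-fat diet (0.89 ± 0.17, adjusted p = 0.0463), and the call was lost when any 1 of the 8 arrays was left out, as were those of Serpina12 and C2. Of 22 measured apolipoproteins and remodelling factors 1 was called and 17 were positive, with a median of 0.17, and 0 were called without low-fat replicate 11. Of all genes, 0.23% were called and 4450 of 8251 were positive. Apoa4, an apolipoprotein of triglyceride-rich particles, had 12.37, 12.41, 12.58 and 12.43 in high-fat livers and 11.94, 11.48, 11.63 and 11.50 in low-fat livers. Its arrays did not overlap but it was not called (0.81 ± 0.19, adjusted p = 0.12). Apob, the core protein of those particles, averaged 9.46 in high-fat and 8.80 in low-fat livers (0.66 ± 0.18, adjusted p = 0.282).

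Cholesterol synthesis and the targets of PPARα, the receptor that turns on fatty acid oxidation, gave no call, where 0.23% of all genes were called. Of 16 cholesterol genes 13 were positive, with a median of 0.24, and 5 were higher and 1 lower before adjustment, where 3.09% and 3.3% of all genes were higher and lower and 4450 of 8251 genes were positive. Mvd, an enzyme of the mevalonate pathway, averaged 7.52 in high-fat and 7.11 in low-fat livers (0.41 ± 0.11, adjusted p = 0.278), and Dhcr7, which makes the last step to cholesterol, 6.99 in high-fat and 6.37 in low-fat livers (0.62 ± 0.25, adjusted p = 0.676). Of 20 PPARα genes 15 were positive, with a median of 0.22, and 5 were higher and 1 lower before adjustment. Angptl4, the member that was lower, averaged 8.50 in high-fat and 8.95 in low-fat livers (-0.45, adjusted p = 0.391 over all probe sets). Another of its probe sets gave -0.30, and dimmer ones gave 0.03 and 0.11. Cyp4a14, a fatty acid hydroxylase, had 10.52, 10.65, 12.16 and 10.97 in high-fat livers and 10.11, 8.65, 10.10 and 10.04 in low-fat livers (1.35 ± 0.36, adjusted p = 0.27). Vnn1, a pantetheinase, had 6.47, 6.66, 8.32 and 6.52 in high-fat livers and 5.84, 5.37, 6.19 and 5.73 in low-fat livers (1.21 ± 0.31, adjusted p = 0.222). High-fat replicate 9 was the highest array for both, and no array of the diets overlapped in either. Ppara itself averaged 8.51 in high-fat and 7.87 in low-fat livers with low-fat replicate 11 at 6.59 (0.65 ± 0.43, adjusted p = 0.845). Fabp2, a fatty acid binding protein better known from the intestine, had 7.01, 7.55, 7.77 and 7.02 in high-fat livers and 6.25, 5.23, 6.92 and 5.93 in low-fat livers. It was not called with all arrays (1.26 ± 0.27, adjusted p = 0.071) and was called without low-fat replicate 11 (adjusted p = 0.00847). Genes of lipid droplets were not called, among them the droplet coat protein Plin2 at 11.38 in high-fat and 11.04 in low-fat livers (0.33 ± 0.13, adjusted p = 0.676).

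Several called genes are known for sex-biased or hormone-controlled levels in mouse liver. Serpina12, the serpin called vaspin, had 5.21, 5.22, 5.09 and 4.99 in high-fat livers and 6.62, 6.66, 6.65 and 6.34 in low-fat livers, 2.72-fold lower. Within 129S6 its arrays were tight, and limma with the 129S6 arrays alone gave an adjusted p of 0.000602, against 0.0486 with all liver arrays (-1.44 ± 0.28). Lifr, the receptor of leukemia inhibitory factor, had 9.03, 9.13, 9.06 and 9.13 in high-fat livers and 9.86, 9.79, 10.54 and 10.27 in low-fat livers (-1.03 ± 0.19, adjusted p = 0.0436). A second of its 5 probe sets gave -1.02 and the other 3 between -0.49 and -0.01. Cyp17a1, which makes androgen precursors, rose, with 7.52, 7.78, 7.61 and 7.50 in high-fat livers and 7.03, 7.09, 6.92 and 6.75 in low-fat livers (0.66 ± 0.11, adjusted p = 0.027). A dim second probe set of Cyp17a1, with a mean of 3.54 over the liver arrays, gave 0.11. Of 17 female-biased genes, 1 was called higher (Cyp17a1) and 3 lower (Cyp2b10, Lifr and Cyp3a16), against 0.0606% and 0.17% of all genes, and their median was -0.01. Without low-fat replicate 11, 1 was called higher and 1 lower, and with the array run as a block 0 and 1. Of 18 male-biased genes and genes of the growth hormone axis, 1 was called lower (Serpina12) and 15 were negative, with a median of -0.18, and 0 were called without low-fat replicate 11 or with the block.

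Some members of the growth hormone list were not called and differed less within run L2. Socs2, an inhibitor of growth hormone signalling that the hormone itself induces, had 5.68, 5.12, 5.47 and 5.34 in high-fat livers and 5.83, 6.32, 6.63 and 7.00 in low-fat livers (-1.04 ± 0.23, adjusted p = 0.0941), and -0.68 within L2. Keg1 had 7.34, 7.04, 7.55 and 7.28 in high-fat livers and 7.81, 7.62, 9.02 and 8.68 in low-fat livers (-0.98 ± 0.26, adjusted p = 0.241), and -0.41 within L2. Igf1, the growth factor, averaged 10.55 in high-fat and 10.78 in low-fat livers (-0.22 ± 0.13, adjusted p = 0.837), with 0.07 within L2 and 0.21 by another probe set.

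The remaining called genes belong to amino acid, glucose, complement and replication functions, and each fell. Csad, an enzyme in the synthesis of the taurine used to conjugate bile acids, had 8.19, 8.48, 8.97 and 8.40 in high-fat livers. It had 9.34, 9.72, 9.90 and 10.72 in low-fat livers, so that the high-fat mean was 2.66-fold lower (-1.41 ± 0.24, adjusted p = 0.0262). It was the 1 called gene among 19 measured genes of taurine, cysteine and methionine metabolism, where 0.23% of all genes were called. G6pc, the catalytic subunit of the phosphatase that lets glucose leave the liver, had 9.76, 10.03, 9.81 and 9.63 in high-fat livers and 10.49, 10.12, 10.36 and 10.41 in low-fat livers (-0.54 ± 0.11, adjusted p = 0.0498). The gap between its nearest arrays was 0.09, the smallest of the called genes. Pck1, the other regulated enzyme of glucose production, averaged 9.58 in high-fat and 9.85 in low-fat livers (-0.27 ± 0.16, adjusted p = 0.837). C2, a complement protease, averaged 7.57 ± 0.11 in high-fat and 8.13 ± 0.15 in low-fat livers (SD, n = 4 each; -0.56 ± 0.11, adjusted p = 0.0498). A dim second probe set of C2, with a mean of 3.70 over the liver arrays, gave 0.02. Mcm10, a DNA replication factor, averaged 6.93 ± 0.25 in high-fat and 7.56 ± 0.17 in low-fat livers (SD, n = 4 each; -0.64 ± 0.12, adjusted p = 0.0486).

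Bile acid genes beyond Cyp2c70 gave no call, where 0.23% of all genes were called. Cyp7a1, the rate-limiting enzyme of the classic pathway, averaged 4.98 in high-fat and 5.13 in low-fat livers (-0.15 ± 0.25, adjusted p = 0.933) and turns to 0.06 without low-fat replicate 12. Cyp8b1, which sets the share of cholic acid, averaged 10.51 in high-fat and 10.48 in low-fat livers (0.04 ± 0.10, adjusted p = 0.959). Cyp7b1, of the alternative pathway, had 8.47, 8.91, 9.26 and 8.85 in high-fat livers and 9.31, 8.97, 10.86 and 9.94 in low-fat livers, a spread led by low-fat replicate 11 (-0.90 ± 0.37, adjusted p = 0.724). Abcc3, a basolateral bile acid pump, averaged 9.76 in high-fat and 10.23 in low-fat livers (-0.46 ± 0.13, adjusted p = 0.312).

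**Figure D3:**
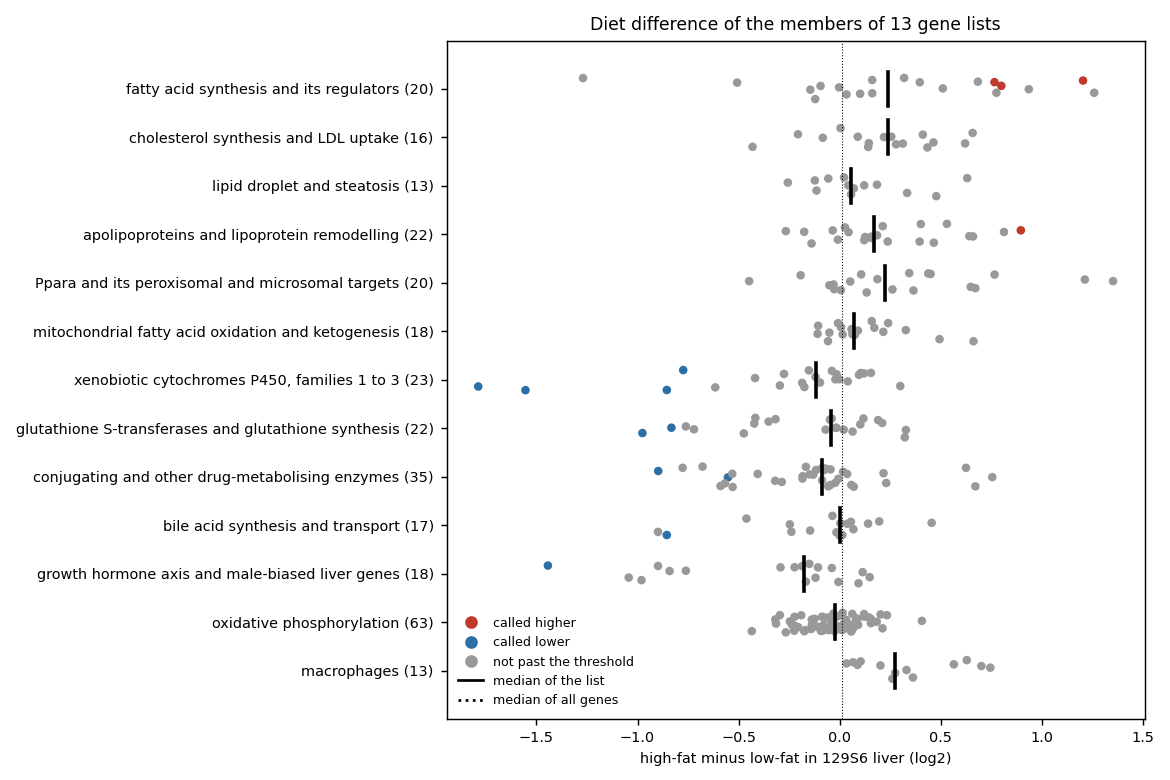
Difference between the diets (high-fat minus low-fat, log2) for each measured member of 13 gene lists in 129S6 liver, with the number of members in brackets; the thick bar is the median of the list and the dotted line that of all genes. Called members are red (higher) or blue (lower). The called genes sit at the ends of their lists, and the oxidative phosphorylation genes lie about 0.

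Mitochondrial genes gave no call in 129S6 liver, where 0.23% of all genes were called. Of 63 oxidative phosphorylation genes 0 were called and 3 had an unadjusted p under 0.05, all of them higher. Of all genes, 6.39% had such a p, and 3.09% were higher with such a p. The median difference of the 63 was -0.02 (0.06 without low-fat replicate 11 and 0.12 within run L2). In B6 liver their median was -0.53, and the difference between the strains was called for 23 of the 63, each more positive in 129S6, against 4.63% of all genes called in that direction. The quality of the B6 arrays moved with diet: the Gapdh 3′ minus 5′ signal was 0.22 to 0.35 on the B6 high-fat arrays and 0.82 to 1.69 on the B6 low-fat arrays, and that of Actb 0.45 to 0.85 and 1.26 to 1.59 on the same arrays, with no overlap. The part of this signal in the difference between the strains was not tested for these genes. Fatty acid oxidation in mitochondria gave 0 of 18, with Hadh, a hydroxyacyl-CoA dehydrogenase, at 9.81 in high-fat and 9.32 in low-fat livers (0.49 ± 0.12, adjusted p = 0.163).

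The response was set against that of B6 liver to see for which of the 19 genes the strains differed. The difference between the strains was called for 453 of 8251 genes (5.49%), 382 more positive (4.63%) and 71 more negative (0.861%) in 129S6, and for 5 of the 19. Srebf1 differed by 0.76 in 129S6 and -0.11 in B6 (difference 0.87 ± 0.18, adjusted p = 0.00777), Fasn by 0.80 in 129S6 and 0.00 in B6 (0.80 ± 0.21, adjusted p = 0.033), and Pltp by 0.89 in 129S6 and -0.05 in B6 (0.94 ± 0.24, adjusted p = 0.0318). These 3 lipid genes thus rose in 129S6 liver by more than in B6 liver, a call that was lost for each after quantile normalization of the liver arrays (adjusted p = 0.079 for Srebf1, 0.257 for Fasn and 0.107 for Pltp). A larger rise need not be a higher level. Srebf1 averaged 10.10 on the high-fat diet in both strains, and 9.34 in 129S6 and 10.21 in B6 on the low-fat diet. Cyp2b10 and Cyp3a11 fell in both strains, and further in 129S6, by 1.55 in 129S6 against 0.77 in B6 for Cyp2b10 (difference -0.78 ± 0.19, adjusted p = 0.0209) and by 1.79 in 129S6 against 0.93 in B6 for Cyp3a11 (-0.86 ± 0.24, adjusted p = 0.0441). Cyp2b10 averaged 7.33 on the high-fat diet in both strains, and 8.88 in 129S6 and 8.11 in B6 on the low-fat diet. Cyp3a11 averaged 9.84 in 129S6 and 10.48 in B6 on the high-fat diet, and 11.63 and 11.41 on the low-fat diet. For Scd1 the strains were not shown to differ, with 1.20 in 129S6 and 0.61 in B6 (0.60 ± 0.30, adjusted p = 0.272).

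In B6 liver 12 of the 19 passed the threshold too, each in the direction seen in 129S6, and 17 had the same sign. They include Serpina12 (-1.44 in 129S6 and -2.21 in B6), Lifr (-1.03 in 129S6 and -1.25 in B6), Mcm10 (-0.64 in 129S6 and -1.11 in B6), Gsta2 (-0.98 in 129S6 and -1.35 in B6) and Cyp17a1 (0.66 in 129S6 and 0.80 in B6). The share of all genes past the threshold in B6 was not counted. The count of 12 therefore cannot be set against that share and is a description only. Csad fell by 1.41 in 129S6 and differed by -0.31 in B6, a difference between the strains of -1.10 ± 0.33 (adjusted p = 0.0633). Apoa4, which was not called in 129S6, was higher on the high-fat diet by 0.81 in 129S6 and by 2.41 in B6 (adjusted p = 1.05e-06 in B6), and the difference between the strains was -1.595 (adjusted p = 0.0025). The B6 low-fat arrays form a run of numbers of their own, L1, and the B6 high-fat arrays lie in L3, and the Gapdh and Actb 3′ minus 5′ signals also separate the B6 diets, so that in B6 the run, this signal and the diet cannot be told apart, and each of these comparisons carries that limit.

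**Figure D4:**
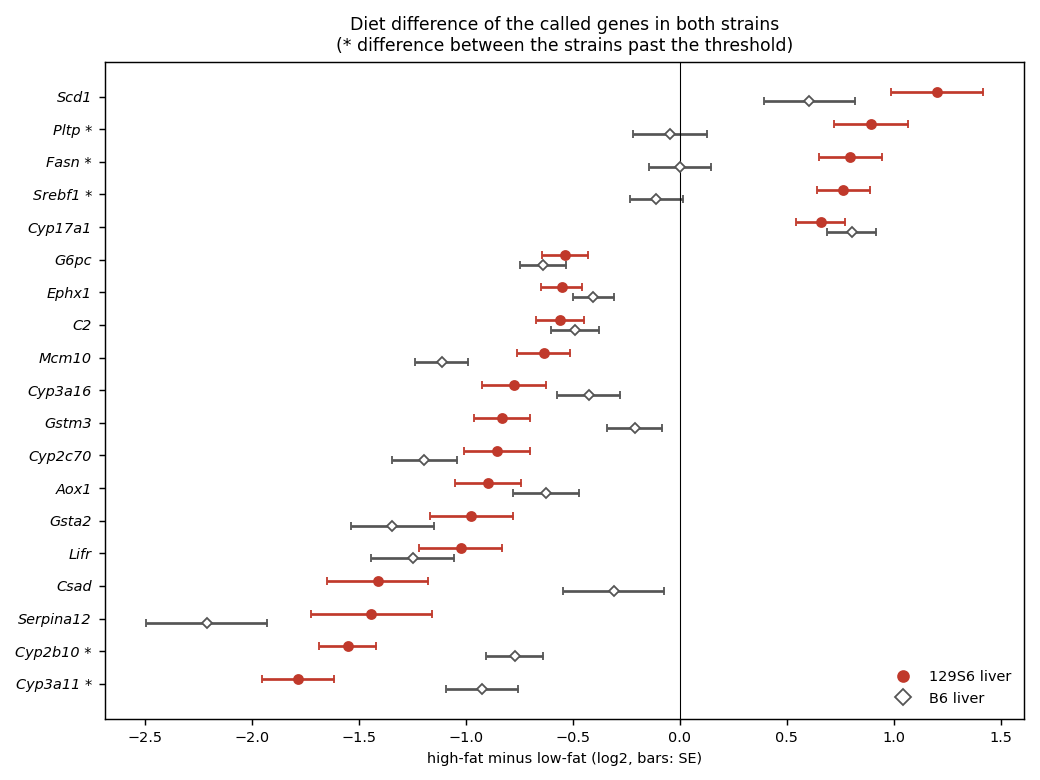
Difference between the diets (high-fat minus low-fat, log2, bars are SE) of the 19 called genes in 129S6 liver (red) and B6 liver (open diamonds), 4 arrays per diet in each. An asterisk marks the 5 genes whose difference between the strains was called; Srebf1, Fasn and Pltp lie near 0 in B6.

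Within run L2, where 4 high-fat arrays meet low-fat replicates 5 and 6, all 19 genes kept their sign and their differences were 57.5% to 134.5% of those over all arrays. The genes called lower mostly shrank, 11 of 14, while 4 of the 5 called higher grew. Accordingly, low-fat arrays of run L3 were above those of L2 in 11 of the 14 genes called lower and in 4 of the 5 called higher, against 39.2% of all genes. With the run as a block, 10 genes were called, 8 higher and 2 lower, of which Scd1 (1.62, adjusted p = 0.000885), Srebf1 (0.88, adjusted p = 0.0194), Cyp3a11 (-1.51, adjusted p = 0.000553) and Cyp2b10 (-1.57, adjusted p = 0.000304) were among the 19. The other 6 were Mid1ip1 (1.11), Elovl2 (1.21), Fabp2 (1.599), Actg1, a cytoskeletal actin (1.06), Rtn4, a membrane-shaping protein of the endoplasmic reticulum (1.498), and Tsc22d1, a leucine zipper protein (1.02). The balance of higher and lower calls thus depends on which low-fat arrays are used. Of the 8 called higher with the block, 3 were among the 20 fatty acid synthesis genes and 1 among the 14 fatty acid binding genes, where 0.121% of all genes were called in either direction.

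**Figure D5:**
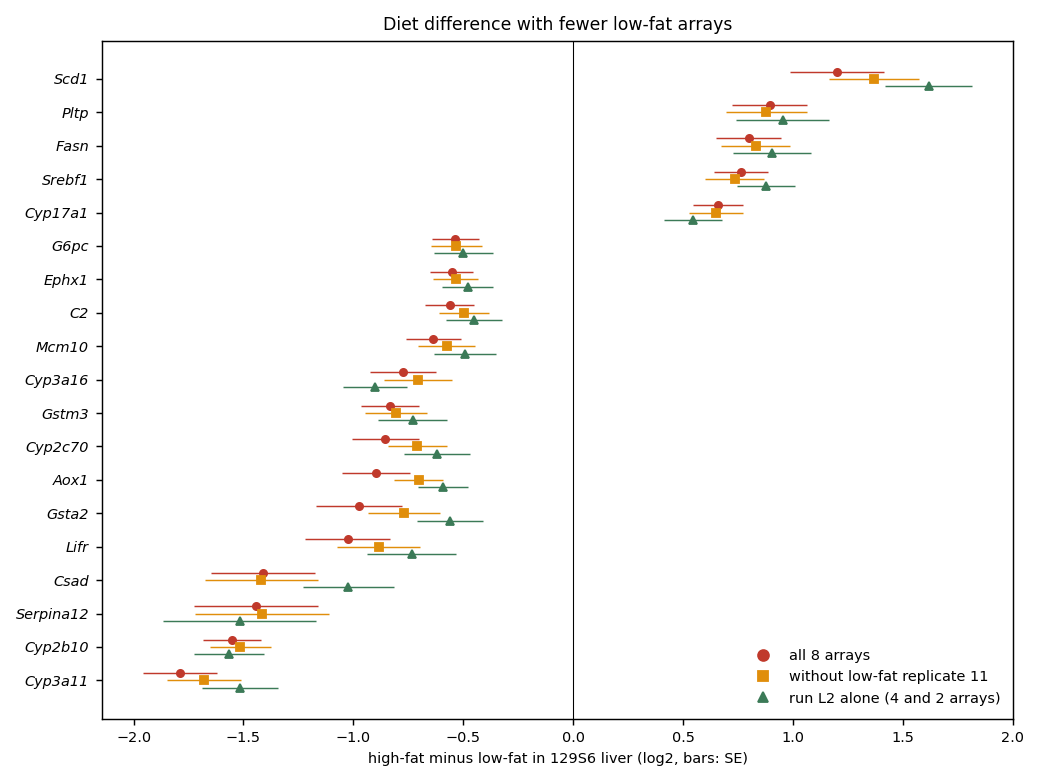
Difference between the diets (high-fat minus low-fat, log2, bars are SE) of the 19 called genes with all 8 arrays (red circles), without low-fat replicate 11 (orange squares) and within run L2 alone (green triangles, 4 high-fat and 2 low-fat arrays). No point crosses 0; the green triangles lie nearer to 0 for most genes called lower, and farther for Scd1, Srebf1 and Fasn.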

How the data were processed

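RNA of pooled mouse livers was measured on 1-colour Affymetrix arrays. The deposited log2 values were made by the authors with RMA, per the submitters' processing notes; RMA removes background, gives all arrays 1 distribution and combines the probes of a set. The sources used here do not give its version. The table of 12488 probe sets and 45 arrays had 0 unmapped columns. Probe sets with 1 gene symbol (10833) were used, 10817 matched to the reference table by Entrez ID; control sets (66) and sets with several symbols (396) or none (1193) were left out. For each gene the set with the highest mean over the liver arrays was kept.

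Differences were fitted with limma 3.58.1 in R 4.3.3 (group means of the 4 liver groups, moderated variances, two-sided, Benjamini-Hochberg over 8251 genes). The number of arrays limits the precision. Array quality was compared by exact permutation tests. Gene lists (29 pathway and 10 marker lists) and their members were chosen with earlier results of these data known. Genes named are those called, up to 3 per list with the smallest p, a short list of key genes, the 10 with the smallest p each way among uncalled genes whose groups do not overlap, and others said to be named after their values were seen. Calls gained under another setting, and genes of a stray array or strain difference, were also named after their values were seen. The alternatives were all probe sets, sets without a suffix for shared probes, no dim genes, quantile normalization, an intensity trend, a fit of the 2 groups alone, 2 covariates, the array run and leaving out each array. The fit was tested on simulated data. RefSeq's promoter table had an entry for 16 of the 19 called genes. Windows of 4 of them were taken from it, and these 4 are the ones shown. Figures used matplotlib 3.10.9 in Python 3.11.15.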

Additional observations from a re-analysis of the deposited data

Results flagged for a closer look

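Of 166 sets of 4 arrays examined, 12 had an array far from the other 3. The genes examined are those named here, some of them named for a stray array. The rate of about 1 in 20 that chance gives therefore does not apply to this number. In low-fat livers these were Fasn in replicate 5 at 8.17, Serpina12 in replicate 12 at 6.34, Cyp4a14 in replicate 6 at 8.65 and Pck1 in replicate 5 at 9.80. In high-fat livers they were Tpst1 in replicate 9 at 6.80, Vnn1 in replicate 9 at 8.32, Tsc22d1 in replicate 9 at 8.11, Abcc3 in replicate 7 at 9.52 and Hsd3b5 in replicate 8 at 8.47. Low-fat replicate 11 stood apart in the 3′ minus 5′ signal of the Gapdh (3.26) and Actb (2.12) control probe sets, and low-fat replicate 12 in the level of its median gene (6.56).

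The difference between the diets differed between the strains, by the test of that difference in limma, for the genes below, where 5.49% of all genes were called. Apoa4, Hsd3b5 and Mid1ip1 were named in part for that difference. It was more positive in 129S6 than in B6 liver for Srebf1 (0.87), Fasn (0.80), Pltp (0.94), Rasip1 (0.46), Nnmt (1.14), Mid1ip1 (1.51), Ebp (0.93), Hadh (0.86), Apof (1.06), Cideb (0.90), G0s2 (1.15), Nr1i3 (1.17), Hsd3b5 (3.05) and Tsc22d1 (1.38). It was more negative for Cyp2b10 (-0.78), Cyp3a11 (-0.86), Apoa4 (-1.595) and P4ha1 (-0.56). For Nr1i3 the value was 0.33 by a probe set with no suffix for shared probes (adjusted p = 0.199).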

How the results depend on the processing

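The number of called genes for diet, 19, was 4 (0 higher, 4 lower) with only the 129S6 arrays in the fit, 12 (5 and 7) over all probe sets, 30 (11 and 19) with the array SD as a covariate, 10 (8 and 2) with the array run as a block and 12 (9 and 3) within run L2, and it ranged from 2 to 23 when 1 array was left out. With the Gapdh 3′ to 5′ signal as a covariate it was 17 (9 and 8), and under the other alternatives 14 to 20. For the difference between the strains, 453 genes, it was 298 after quantile normalization, 1022 with the Gapdh signal and 822 (388 and 434) with the array SD as covariates, and 263 to 849 with 1 array left out; the run could not be used there because B6 low-fat arrays are alone in theirs. The causes were not tested. Some uncalled differences changed sign. Nr1i2 was -0.048 with the Gapdh signal, -0.0089 by run and within L2, and -0.044 to 0.16 with 1 array left out. Nr1i3 was -0.071, -0.092 and -0.062 to 0.27 in the same settings, and Cyp8b1 -0.0074, -0.0055 and -0.024 to 0.090. With 1 array left out, Elovl6 ranged from -0.046 to 0.12 and Cyp7a1 from -0.38 to 0.062. Igf1 was 0.071 by run and within L2. With unsuffixed probe sets Igf1 was 0.21 and Angptl4 0.034. No paired analysis was possible because the high-fat and low-fat groups share no replicate number.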

Other observations

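Genes of the circadian clock gave no call among 22 measured, where 0.23% of all genes were called. Cry1, a repressor of the clock, averaged 6.21 in high-fat and 6.73 in low-fat livers (-0.52 ± 0.19, adjusted p = 0.639), and Clock, its activator, 5.05 in high-fat and 5.38 in low-fat livers (-0.34 ± 0.12, adjusted p = 0.639). Among the macrophage markers the complement subunit C1qc had 9.27, 9.59, 9.45 and 9.42 in high-fat livers and 8.93, 8.85, 8.21 and 9.24 in low-fat livers (0.63 ± 0.27, adjusted p = 0.733). Its partners C1qa and C1qb differed by 0.74 and 0.70, with low-fat replicate 11 lowest for C1qa at 6.64. Igfbp1, an insulin-repressed binding protein, ranged from 6.77 to 8.18 in high-fat livers and from 7.18 to 9.63 in low-fat livers (-1.09 ± 0.38, adjusted p = 0.627).

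Some genes with separated arrays are not usually named in liver metabolism. Dntt, the terminal transferase of lymphocyte precursors, had 6.50, 6.52, 6.60 and 6.28 in high-fat livers and 5.93, 5.81, 6.11 and 5.56 in low-fat livers (0.62 ± 0.13, adjusted p = 0.0528). Its other 2 probe sets gave 0.30 and 0.38. Rad51b, a DNA repair gene, had 6.97, 7.03, 8.08 and 6.80 in high-fat livers and 6.46, 5.95, 6.31 and 6.15 in low-fat livers (1.00 ± 0.21, adjusted p = 0.071). Ddc, the aromatic amino acid decarboxylase, averaged 7.61 in high-fat and 8.46 in low-fat livers (-0.84 ± 0.20, adjusted p = 0.15).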
